A study of Mus musculus with 64 samples.

Results

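Arc, Homer1, Nptx2, Bdnf, Vgf, Dusp1, Dusp6, Nr4a1, Nr4a3 and Btg2 are 10 genes whose transcripts rise in neurons after synaptic activity, and they were followed here by name in every library of a mouse striatum RNA sequencing study. They are 10 of the 23420 genes in the count tables, and all 10 had enough reads to be tested. The study set mice labelled as knockouts of Csnk1e, which encodes casein kinase 1 epsilon, beside mice labelled wild type, 8 of each, at about 50 days of age and without any treatment. Striatal punches from both hemispheres were pooled per mouse, so each library is 1 mouse. Poly(A) RNA was read on 4 lanes, which were summed per mouse. Neither the strain and sex of the mice nor the deleted part of Csnk1e is stated in the sources used here.

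Calcium entry and growth factor receptors reach these genes through the ERK kinase cascade and through the transcription factors CREB, SRF and MEF2, which act at their promoters without new protein synthesis for the fastest of them. The first products are transcription factors such as Fos and Egr1, and effector genes act at the synapse, outside the cell or back on the cascade itself. In the striatum, dopamine and glutamate inputs to the projection neurons are well known inducers of the same programme.

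The targeted gene did not follow the genotype labels. Csnk1e ranged from 38.0 to 79.5 CPM (counts adjusted for library size) in the 8 libraries labelled knockout and from 42.1 to 86.2 CPM in the 8 labelled wild type. Its log2 fold change was 0.03, with a 95% interval that spans 0. Within each label its values lay at a low or a high level, with none between. Knockouts 6, 7 and 8 and wild types 1, 2, 3 and 8 held 38.0 to 44.9 CPM. Knockouts 1 to 5 and wild types 4 to 7 held 72.2 to 86.2 CPM. All directions given here are therefore between labels, which the targeted gene goes against. Libraries held 22088005 to 30238947 gene reads. Markers of striatal projection neurons summed to 3999 to 5662 CPM in the labelled knockouts and 3708 to 6070 CPM in the labelled wild types. Markers of cortical excitatory neurons, led by the glutamate transporter Slc17a7, were present too, at 521 to 1025 CPM in the labelled knockouts and 531 to 1113 CPM in the labelled wild types. Choroid plexus markers summed to 1620 CPM in knockout 1 and 2355 CPM in wild type 7, against medians of 24.5 and 21.1 CPM in these groups. Xist, the X-inactivation transcript of females, stood at 1155 to 1483 CPM in knockouts 3, 4 and 8 and wild types 6 and 7, and at 11.1 CPM or less in the other libraries. Knockout 3 also held Y-linked transcripts, at a sum of 15.8 CPM. This sum was 0.37 to 1.74 CPM in knockouts 4 and 8 and wild types 6 and 7, and 171 to 213 CPM in the libraries low in Xist. Where leaving out 1 or more of knockouts 1 and 3 and wild type 7 changed a call, the value without them is given beside it.

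Compared per length of annotated exon, the 10 genes covered a wide range of levels. Vgf was the highest at 49.7 ± 7.77 RPKM (SD, n = 16; CPM divided by the exon length in kilobases). Arc followed at 29.4 ± 11.6 RPKM, Nr4a1 at 22.4 ± 7.75 RPKM, Homer1 at 20.2 ± 3.78 RPKM, Dusp6 at 14.6 ± 1.79 RPKM, Nptx2 at 12.7 ± 1.64 RPKM and Dusp1 at 10.4 ± 2.04 RPKM (SD, n = 16 each). Below them came Btg2 at 3.60 ± 0.83 RPKM, Bdnf at 1.87 ± 0.50 RPKM and Nr4a3 at 0.53 ± 0.13 RPKM (SD, n = 16 each). Among neighbours in this order, Nr4a1 was above Homer1 in 9 of 16 libraries, so their order is not settled. Only the steps between Dusp1 and Btg2 and between Bdnf and Nr4a3 had ranges that did not overlap. The level of Homer1 depends on which of its long and short transcripts set the length, and gene counts do not separate the short activity-induced form from the long ones. Nr4a3, with 41 to 140 reads per library, was the least precisely measured, and the counting error of its level was 11.2%.

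**Figure D1:**
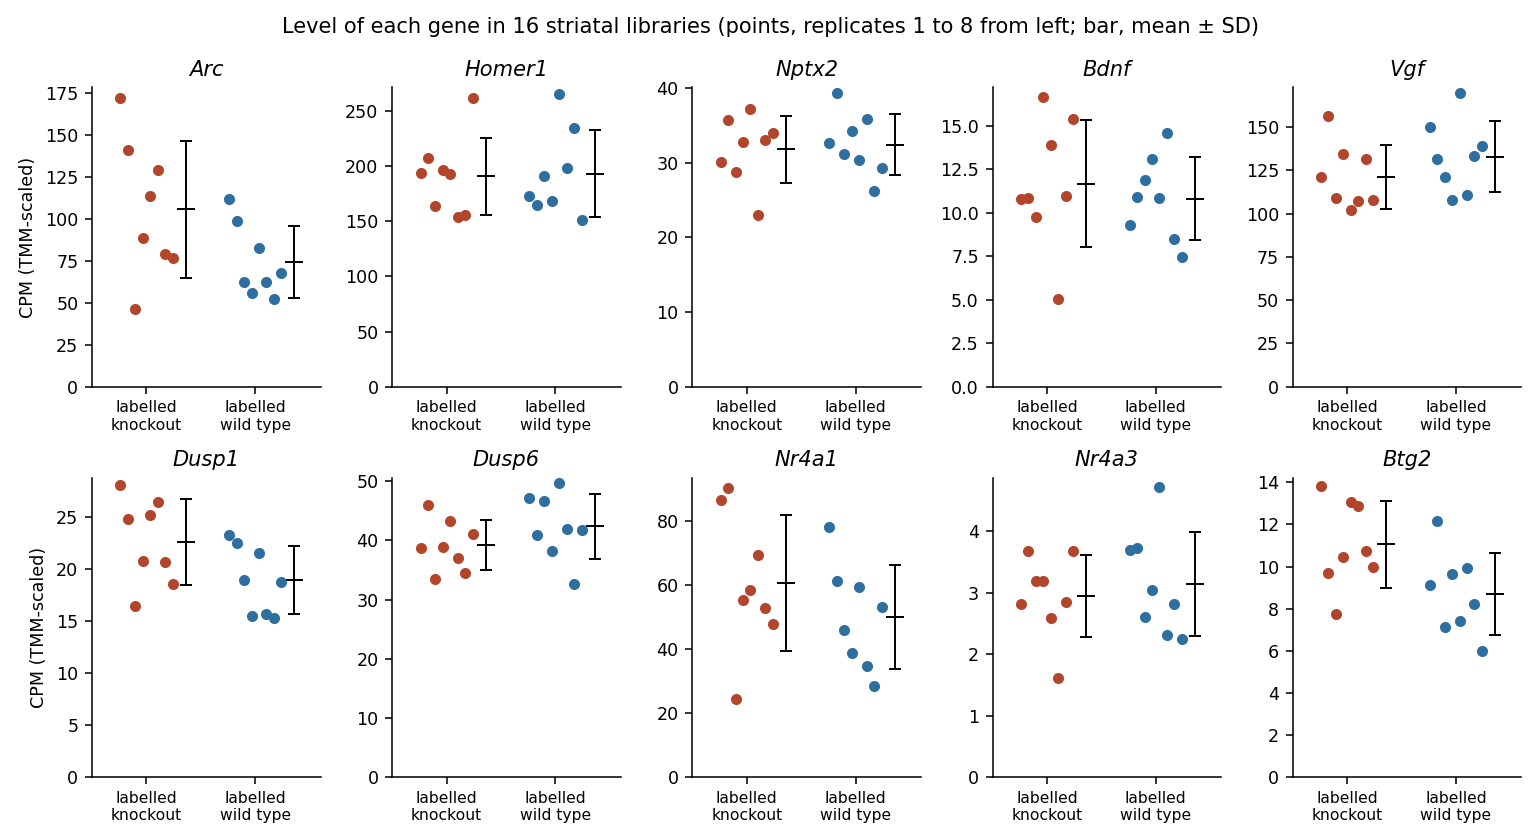
Level of each of the 10 genes (CPM, axis from 0) in the 8 libraries labelled knockout (left of each panel) and the 8 labelled wild type (right), replicates 1 to 8 from left, with the mean and SD beside them. The ranges overlap in every panel, with Arc spanning 46.0 to 171.9 CPM in the labelled knockouts and 52.3 to 111.8 CPM in the labelled wild types.

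The synaptic effectors did not share a pattern. Arc encodes a cytoskeleton-associated protein that promotes removal of AMPA receptors from synapses, and it lies on chromosome 15 (chr15:74669083-74672570, minus strand, GRCm38), 4.745 Mb from Csnk1e. It ranged from 46.0 to 171.9 CPM with a median of 101.1 in the labelled knockouts, and from 52.3 to 111.8 CPM with a median of 65.0 in the labelled wild types. Knockouts 1, 2, 5 and 6, at 171.9, 140.9, 113.5 and 128.7 CPM, were above all 8 labelled wild types, and knockout 3 was below all of them. Homer1, a scaffold that links metabotropic glutamate receptors to the postsynaptic density (chr13:93299635-93405129, plus strand), ranged from 153.7 to 261.7 CPM in the labelled knockouts and from 150.8 to 265.7 CPM in the labelled wild types. Nptx2 encodes a secreted pentraxin that clusters AMPA receptors (chr5:144545902-144557478, plus strand). It ranged from 23.0 to 37.2 CPM in the labelled knockouts and from 26.2 to 39.3 CPM in the labelled wild types. For Homer1 the ranges of the labelled groups covered each other nearly completely. Those of Nptx2 overlapped widely, with 1 labelled knockout below all labelled wild types and 1 labelled wild type above all labelled knockouts.

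Of the secreted factors, Bdnf, the neurotrophin that signals through the TrkB receptor (chr2:109674700-109727007, plus strand), had a median of 10.9 CPM in the labelled knockouts, between 5.04 and 16.6. Its median was 10.9 CPM in the labelled wild types as well, between 7.43 and 14.6. The lowest value of all, 5.04 CPM, was in knockout 6, which rested on 128 reads. Vgf, a neuropeptide precursor of the granin type (chr5:137026392-137033351, plus strand), ranged from 101.9 to 156.1 CPM in the labelled knockouts and from 107.7 to 169.6 CPM in the labelled wild types. Knockouts 5 and 6 lay below all labelled wild types in Vgf, and wild type 5 lay above all labelled knockouts.

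The MAP kinase phosphatases pointed in opposite directions, neither past the test. Dusp1 dephosphorylates ERK, p38 and JNK in the nucleus (chromosome 17, minus strand). It ranged from 16.4 to 28.1 CPM with a median of 22.8 in the labelled knockouts, and from 15.3 to 23.3 CPM with a median of 18.9 in the labelled wild types. The same 4 knockouts that led in Arc, numbers 1, 2, 5 and 6, were above all labelled wild types. Dusp6, a cytoplasmic phosphatase specific for ERK (chr10:99263231-99267489, plus strand), ranged from 33.6 to 46.0 CPM in the labelled knockouts and from 32.7 to 49.7 CPM in the labelled wild types. For Dusp6, 3 labelled wild types were above all labelled knockouts.

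Among the nuclear factors, Nr4a1, an orphan nuclear receptor (chr15:101254269-101274795, plus strand), had the widest fold range after Arc, 3.70-fold between its highest and lowest library. It ran from 24.4 to 90.3 CPM with a median of 57.0 in the labelled knockouts, and from 28.4 to 78.2 CPM with a median of 49.7 in the labelled wild types. Knockouts 2 and 1 were the highest, at 90.3 and 86.8 CPM, and knockout 3 was the lowest of all 16. Its relative Nr4a3 (chr4:48045153-48086447, plus strand) ranged from 1.61 to 3.68 CPM in the labelled knockouts and from 2.24 to 4.71 CPM in the labelled wild types. Btg2, an antiproliferative cofactor that recruits the deadenylase complex (chr1:134075170-134079120, minus strand), ranged from 7.76 to 13.8 CPM in the labelled knockouts and from 6.00 to 12.2 CPM in the labelled wild types. In Btg2, 3 labelled knockouts were above all labelled wild types and 3 labelled wild types were below all labelled knockouts.

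No member passed the test between the labelled genotypes. By the quasi-likelihood test of edgeR, 0 of 10 members were called at an adjusted p under 0.05, as were 0% of the 15446 genes tested. At an unadjusted p under 0.05 there were 3 of 10 members, all with the higher mean in the labelled knockouts, against 3.41% of all genes. They were Btg2 with a log2 fold change of 0.34 (95% interval 0.06 to 0.62, unadjusted p = 0.0185), Arc with 0.51 (0.06 to 0.96, p = 0.0293) and Dusp1 with 0.26 (0.02 to 0.50, p = 0.0376). Each of the 10 had adjusted p = 0.997 by edgeR. Over all genes 526 were at that unadjusted level by edgeR, 498 by DESeq2 and 683 by limma-voom, and 0 were called by each. Of 31 other settings, Btg2 stayed at an unadjusted p under 0.05 in 28, Arc in 20 and Dusp1 in 16. Arc and Dusp1 are not separate measurements of a difference, since they moved together from library to library. Btg2 may not be separate from them either. Its correlation of log2 CPM over the 16 libraries was r = 0.66 with Arc and 0.58 with Dusp1. The log2 fold change of Nr4a1 was 0.28 (SE 0.22) and that of Bdnf 0.11 (SE 0.18). The other 5 had values between -0.13 and -0.02, with Vgf at -0.13 (SE 0.10), Dusp6 at -0.11 (SE 0.08), Nr4a3 at -0.10 (SE 0.17), Nptx2 at -0.03 (SE 0.09) and Homer1 at -0.02 (SE 0.12). The signs of Homer1, Nptx2, Bdnf and Nr4a3 turned under at least 1 other setting, so these 4 have no stable direction here. With the library number in the fit, the log2 fold change was 0.27 for Arc, 0.14 for Dusp1 and 0.07 for Nr4a1. Their unadjusted p by edgeR was 0.195, 0.218 and 0.757, and Btg2 stood at 0.26 (p = 0.0763). Without knockout 1 and wild type 7, Arc stood at 0.32, Dusp1 at 0.17 and Nr4a1 at 0.10. Their unadjusted p was 0.145, 0.163 and 0.646, and Btg2 stood at 0.27 (p = 0.0656). With knockout 3 left out as well, Arc, Dusp1 and Nr4a1 stood at 0.44, 0.22 and 0.23. Their unadjusted p was 0.0233, 0.0514 and 0.197, and Btg2 stood at 0.34 (p = 0.0235). Sex was also put in the fit, read from Xist alone, which took knockout 3 as female. Arc then stood at 0.56 (unadjusted p = 0.00445 by edgeR), Dusp1 at 0.30 (p = 0.00157) and Nr4a1 at 0.37 (p = 0.0345). Btg2 stood at 0.35 (p = 0.0152), and each of these 4 had adjusted p = 0.989 by edgeR.

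**Figure D2:**
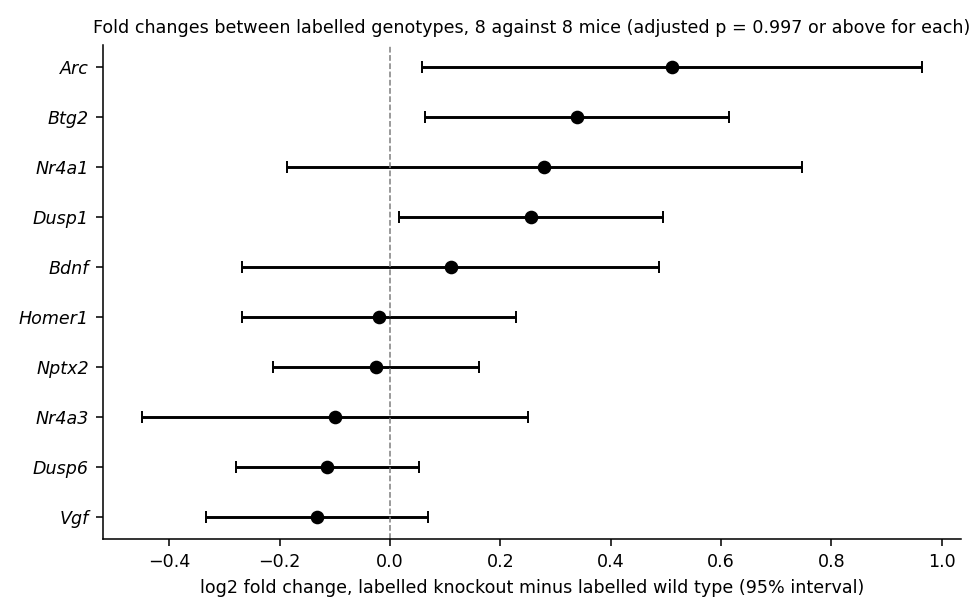
Log2 fold change of each of the 10 genes, labelled knockout minus labelled wild type, with its 95% interval (8 against 8 mice). Arc, Btg2 and Dusp1 have intervals above 0 before adjustment, and all 10 have adjusted p = 0.997.

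Mice differed from one another in these genes more than in most genes. The biological coefficient of variation of edgeR, which is the spread between mice of 1 labelled group after counting error is removed, was 0.31 for Nr4a1, 0.30 for Arc and 0.25 for Bdnf. The median over all genes tested was 0.0860. Nr4a1 stood at the 98.3rd percentile of all genes, Arc at the 98.1st, Bdnf at the 96.3rd and Nr4a3 at the 93.9th. Dusp6 was the steadiest member, at the 67.5th percentile, and the median of the 10 was 88.4. Among the 500 genes nearest in level, Arc stood at the 100th percentile, Nr4a1 at the 99.8th and Nr4a3, whose low count puts it among noisier genes, at the 88.4th. The highest library exceeded the lowest by 3.73-fold for Arc, 3.70-fold for Nr4a1 and 3.30-fold for Bdnf, against 1.39-fold for the median gene. For Homer1, Nptx2, Vgf and Dusp6 this ratio was 1.52 to 1.76. The members were listed because they respond to activity, and with earlier results of these data known. Their place in this order is therefore a description and was not tested.

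**Figure D3:**
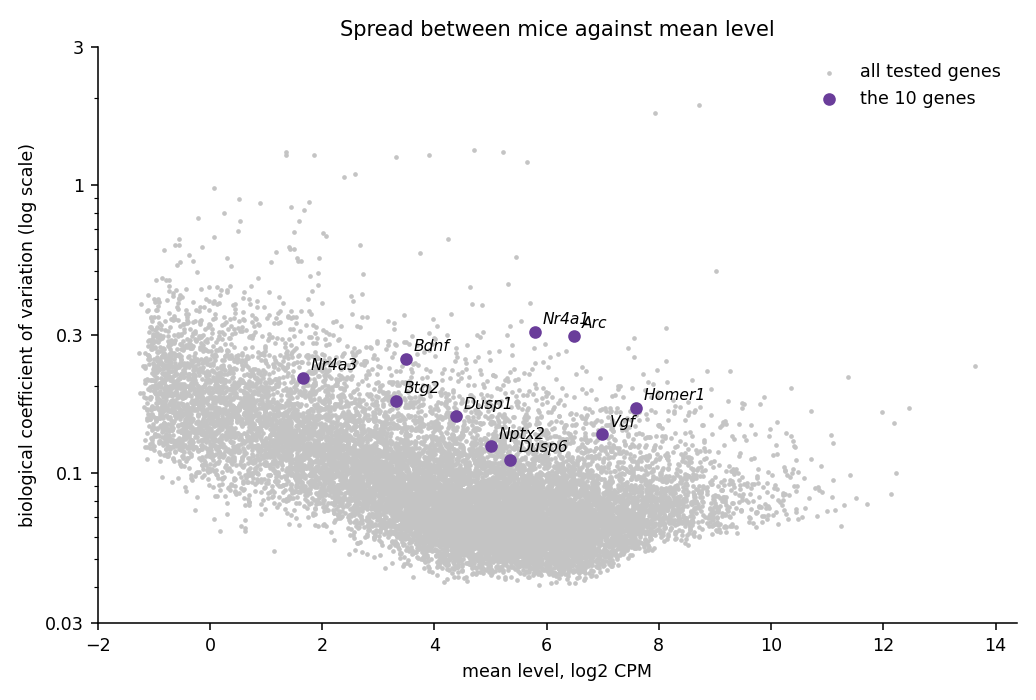
Biological coefficient of variation (log axis) against mean level (log2 CPM) for all 15446 tested genes in grey and the 10 genes in purple. Nr4a1 and Arc, at 0.31 and 0.30, lie on the upper edge of the cloud at their level, and Dusp6, at 0.11, has the lowest value of the 10.

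Arc, Dusp1 and Nr4a1 moved together across the 16 mice. The correlation of log2 CPM was r = 0.95 (Spearman's rho = 0.95) between Arc and Dusp1, r = 0.93 (rho = 0.95) between Arc and Nr4a1 and r = 0.90 (rho = 0.91) between Dusp1 and Nr4a1. For each, the permutation p was 1e-05 for r and for rho, the smallest that 100000 resamples can give, and adjusted over the 45 pairs of members it was 0.00015. Within the labelled knockouts alone the same 3 values were 0.97, 0.96 and 0.89, and within the labelled wild types 0.93, 0.92 and 0.95, so the relation was present within each label. Without the 2 libraries farthest from the median of the first gene, they were 0.95, 0.91 and 0.86. Without knockouts 1 and 3 and wild type 7, they were 0.94, 0.90 and 0.89. The ends of this shared axis were knockouts 1 and 2, which were high in all 3 genes, and knockout 3 and wild types 4, 6 and 7, which were low in all 3. Of these 4 low libraries, knockout 3 and wild types 6 and 7 are among the 5 with high Xist, and the part of sex in this axis was not tested. Arc and Nr4a1 moved over nearly the same range of folds, and Dusp1 over a narrower one of 1.84-fold. In whole tissue, a change in the number of active cells and a change in the RNA of each cell cannot be told apart.

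**Figure D4:**
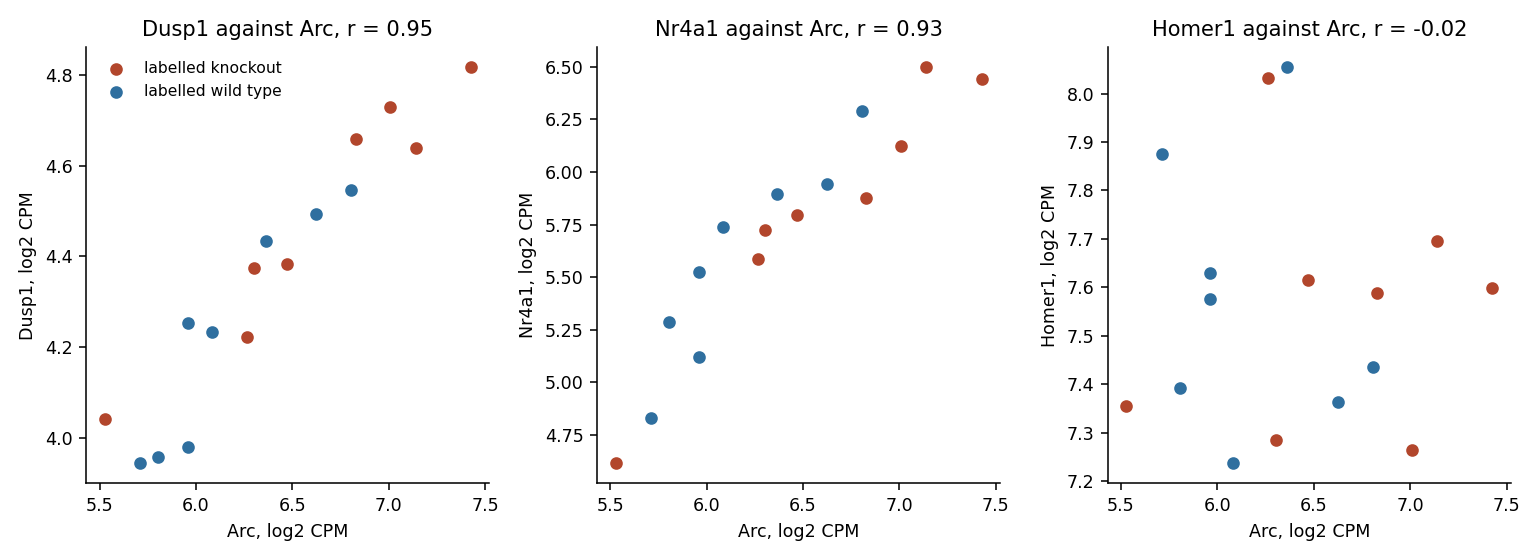
Dusp1, Nr4a1 and Homer1 against Arc (log2 CPM) in the 8 libraries labelled knockout and the 8 labelled wild type. Dusp1 and Nr4a1 climb with Arc in both labelled groups (r = 0.95 and 0.93 over 16 libraries), and Homer1 does not (r = -0.02).

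Promoter sequences of RefSeq (GRCm38.p6) were at hand for 7 of the 10 genes, in 14 windows, and not for Arc, Nptx2 and Vgf. The windows of Dusp1 and Nr4a1 are shown because these genes moved together, that of Btg2 because it holds the same full motif as Dusp1, and that of Dusp6, the other phosphatase, beside them. Each runs 5′ to 3′ on the gene's strand up to the 250 bases before the RefSeq start, with Dusp1 ending 47 bases earlier, where GENCODE places its first exon. Capitals mark TGACG or its complement CGTCA, the core of the cAMP response element (CRE) bound by CREB, and the full element TGACGTCA, which holds the core on both strands, appears as 1 run of 8 capitals.
Dusp1, chr17:26508520-26508722, minus strand: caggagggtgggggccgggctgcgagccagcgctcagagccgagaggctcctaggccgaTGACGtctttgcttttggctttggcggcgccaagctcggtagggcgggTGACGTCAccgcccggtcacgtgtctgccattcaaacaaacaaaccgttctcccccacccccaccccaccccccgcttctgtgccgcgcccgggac
Nr4a1, chr15:101266596-101266845, plus strand: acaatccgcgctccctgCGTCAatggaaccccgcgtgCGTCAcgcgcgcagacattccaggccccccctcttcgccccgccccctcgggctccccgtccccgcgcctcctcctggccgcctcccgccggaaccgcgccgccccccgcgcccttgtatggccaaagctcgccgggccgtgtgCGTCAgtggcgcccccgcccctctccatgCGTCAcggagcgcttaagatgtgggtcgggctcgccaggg
Btg2, chr1:134079156-134079405, minus strand: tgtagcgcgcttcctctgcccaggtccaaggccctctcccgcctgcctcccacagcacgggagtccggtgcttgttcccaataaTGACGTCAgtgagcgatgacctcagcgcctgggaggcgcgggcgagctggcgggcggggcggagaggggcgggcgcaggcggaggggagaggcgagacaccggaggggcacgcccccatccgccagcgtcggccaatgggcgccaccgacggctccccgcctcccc
Dusp6, chr10:99262981-99263230, plus strand: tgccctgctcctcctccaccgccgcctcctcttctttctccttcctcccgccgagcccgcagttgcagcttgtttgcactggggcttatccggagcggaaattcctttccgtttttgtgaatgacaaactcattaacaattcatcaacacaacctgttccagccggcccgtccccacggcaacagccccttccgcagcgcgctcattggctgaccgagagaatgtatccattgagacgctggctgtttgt
The full element stood at positions -143 to -136 from the RefSeq start of Dusp1 and -166 to -159 from that of Btg2, and 1.55% of the 32851 RefSeq windows of 250 bases hold it. The core was present 4 times in Nr4a1, 4 times in Nr4a3, 3 times in the first of 2 Homer1 windows, 1 time in 1 of 7 Bdnf windows and 0 times in Dusp6, and 17.8% of all windows hold it. Counted on both strands, the core appears 3 times in Dusp1 and 2 times in Btg2, with the full element giving 2 in each. The CArG box of SRF, sought only as CC, then 6 bases that are each A or T, then GG, had 0 matches in all 14 windows, against 1.47% of all windows. Near matches to it were not sought, so a looser SRF site may be present. The letters TATAAA had 0 matches in all 14 windows as well, against 12.4% of all windows. The letters GGGCGG, on either strand, occurred 3 times each in Dusp1, Nr4a1 and Btg2, 1 time in Nr4a3, and 2 times and 1 time in 2 of the Bdnf windows. That is 6 of the 14 windows, against 32.7% of all windows. All counts are over the full 250 bases. For Dusp1, 1 GGGCGG match, at -48 to -43, reaches into the 47 bases not shown.

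The 3 genes also moved with the early transcription factors. A score over Fos, Fosb, Fosl2, Jun, Junb, Egr1 to Egr4, Npas4 and Ier2, the mean of their centred log2 CPM, correlated with Nr4a1 at r = 0.87 (rho = 0.85, permutation p = 2e-05, adjusted over 60 relations 0.0012). It correlated with Dusp1 at r = 0.81 (rho = 0.78, permutation p = 0.00019, adjusted 0.0057) and with Arc at r = 0.79 (rho = 0.78, permutation p = 0.00033, adjusted 0.0066). Without the 2 libraries farthest from the median these were 0.78, 0.77 and 0.72. Within the labelled knockouts they were 0.91, 0.78 and 0.83, and within the labelled wild types 0.83, 0.94 and 0.81. The other 7 members did not pass, the nearest being Vgf at r = 0.45 and Dusp6 at r = 0.45. Knockout 3 had the lowest score, -0.62, and knockout 2 the highest, 0.38. Without knockouts 1 and 3 and wild type 7, the relations stayed positive at 0.79, 0.77 and 0.69 and no longer passed, with adjusted permutation p = 0.0588, 0.0669 and 0.107. Fos itself, at 9.47 ± 3.38 CPM in the labelled knockouts and 8.39 ± 2.86 CPM in the labelled wild types (SD, n = 8 each), had r = 0.84 with Nr4a1, 0.77 with Dusp1 and 0.76 with Arc. Junb had r = 0.84, 0.76 and 0.72 with the same genes, and Egr1 had 0.79, 0.70 and 0.70. Jun, chosen after its values were seen, ran the other way, at r = -0.49, -0.50 and -0.49. For Nr4a1, 7 of the 11 early factors lay above the 95th percentile of r over all genes, and for Dusp1 and Arc 6 each. Of the other members, Dusp6 had 4 of 11, Vgf 3, Btg2 2, Nr4a3 1, and Homer1, Nptx2 and Bdnf 0. Of 28 other activity-regulated effectors, 8 lay above that percentile for Nr4a1, 7 for Arc and 6 for Dusp1, with medians of r of 0.19, 0.16 and 0.16 against 0.01 over all genes for each. This was not particular to these 3 genes. Dusp6 had 7 of 28 (median r 0.28), Nr4a3 6 (0.20) and Vgf 5 (0.15), while Nptx2 had 4, Bdnf 3, and Homer1 and Btg2 0.

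Library number, which the labels give for each mouse, moved with the same genes. Dusp1 had r = -0.62 and Arc r = -0.59 with it, higher in low numbers, with adjusted permutation p = 0.12 and 0.134. Nr4a1 had r = -0.50 and adjusted permutation p = 0.252. Without knockout 3 all 3 passed, at r = -0.79 for Arc and -0.78 for Nr4a1 (adjusted permutation p = 0.00795 each) and -0.75 for Dusp1 (adjusted 0.0157). Without knockouts 1 and 3 and wild type 7 they were -0.68, -0.68 and -0.62, and none passed (adjusted permutation p = 0.107 to 0.179). Labelled knockouts held numbers 1 to 13 and labelled wild types 3 to 17, so library number and label are partly confounded. The share of reads in no gene had r = 0.51 with Arc, 0.48 with Dusp1 and 0.43 with Nr4a1, and the number of gene reads had r = 0.04, 0.07 and -0.04. The part of these library measures in the shared axis was not tested. Glucocorticoid-induced genes, a list that tracks stress hormone, had r between -0.33 and 0.26 with the 10 members over all libraries, and 0 of these relations passed. Within the labelled wild types r ran from -0.89 for Bdnf to 0.80 for Vgf. Within the labelled knockouts it ran from -0.37 for Homer1 to 0.02 for Dusp1, a difference that was not tested. Knockout 3 had the highest score of this list, 0.29. Without it, r was 0.47 for Dusp1, 0.42 for Nr4a1 and 0.39 for Arc, and none of these 3 passed.

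Genes most like each of the 3 members, by r over 16 libraries among the 15436 other tested genes, were partly of the same programme. For Arc they were Arl4d, an ARF-like GTPase (0.82), Sik1, a salt-inducible kinase that restrains CREB coactivators (0.82), and Hic2 (0.81). For Dusp1 they were Sik1 (0.86), Gemin5 (0.85) and Unc45a (0.84). For Nr4a1 they were Junb, Slc25a25, a mitochondrial carrier, and Fos (0.84 each). These are the highest of many values and carry no test.

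Btg2 followed Arc less closely. The correlation was r = 0.66 (rho = 0.66) with Arc, with permutation p = 0.00554 and 0.0499 adjusted, and rho did not pass at 0.0635. It was 0.80 within the labelled knockouts and 0.31 within the labelled wild types, a difference that was not tested. The call held in 6 of 25 alternatives. It was lost without any 1 of 11 libraries, knockout 1 among them (r = 0.58, adjusted permutation p = 0.184 at most), and by both other scalings, a prior count of 0.5, flow cell 2 alone and deviations from the label means (r = 0.56, adjusted permutation p = 0.13). It was also lost with the replicate block taken out (r = 0.06) and without knockouts 1 and 3 and wild type 7 (r = 0.52). Its nearest genes were Ovca2 (0.83), Olfml2a (0.80) and Cbx8 (0.78).

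**Figure D5:**
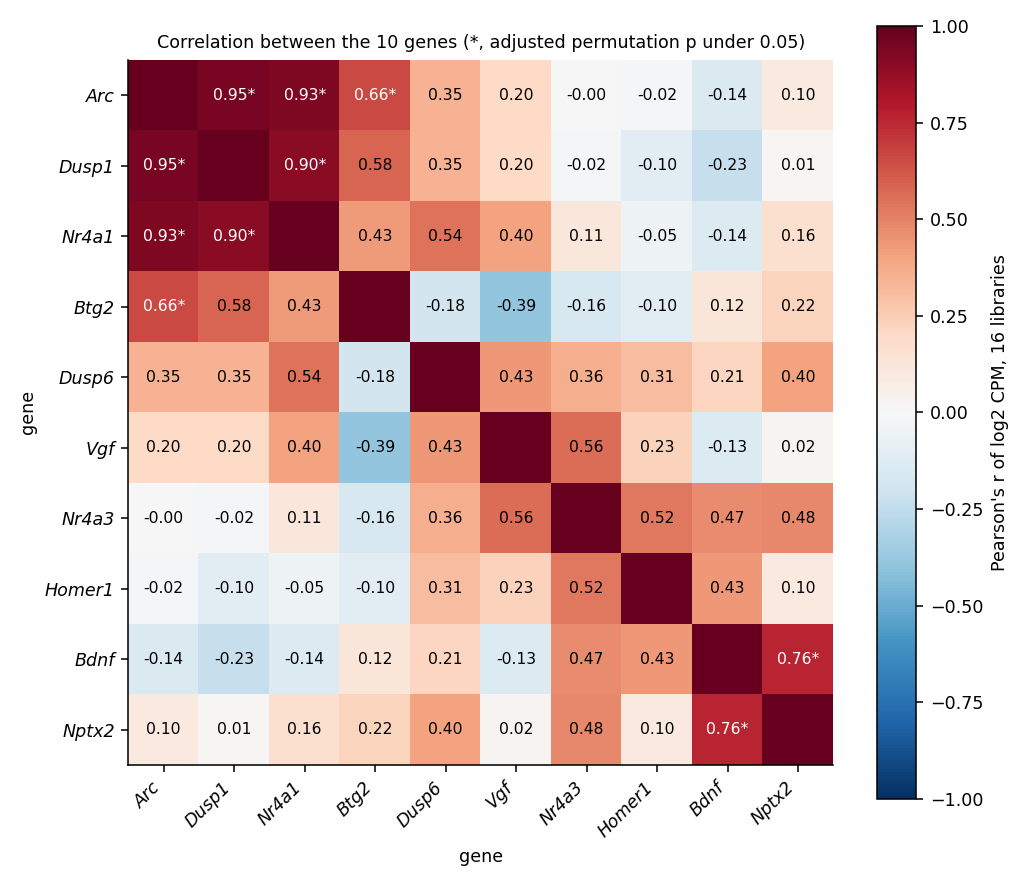
Pearson's r of log2 CPM over 16 libraries for the 45 pairs of the 10 genes, with a star for adjusted permutation p under 0.05. Arc, Dusp1 and Nr4a1 form a block at 0.90 to 0.95, Nptx2 and Bdnf pair at 0.76, and most other values lie between -0.4 and 0.6.

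No pair of the other members with Arc, Dusp1 or Nr4a1 passed, apart from Btg2 with Arc. Over the 45 pairs, r was above 0 in 32, with a median of 0.21, and 5 pairs passed by r and 4 by rho. None of the 8 pairs within 1 role passed. Arc and Homer1 had r = -0.02, Arc and Nptx2 0.10, Homer1 and Nptx2 0.10, Bdnf and Vgf -0.13, Dusp1 and Dusp6 0.35, Nr4a1 and Btg2 0.43, Nr4a1 and Nr4a3 0.11, and Nr4a3 and Btg2 -0.16. Dusp6 had r = 0.54 (rho = 0.41) with Nr4a1 over all libraries, which did not pass (adjusted permutation p = 0.17), with 0.63 within the labelled knockouts and 0.74 within the labelled wild types. This r fell to 0.17 without the 2 libraries farthest from the median of Dusp6. It was 0.42 without knockout 3 and 0.29 without knockouts 1 and 3 and wild type 7. With Arc, Dusp6 had r = 0.35 over all libraries, 0.59 within the labelled knockouts and 0.60 within the labelled wild types. With Dusp1 it had 0.47 within the labelled knockouts and 0.71 within the labelled wild types. Nr4a3 had r = -0.31, -0.50 and -0.19 with Arc, Dusp1 and Nr4a1 within the labelled knockouts, and 0.64, 0.65 and 0.57 within the labelled wild types, a difference that was not tested. Vgf was most like Nr4a3 among the members, at r = 0.56, which did not pass (adjusted permutation p = 0.147). Outside the list, Vgf was most like Grasp, a scaffold of metabotropic glutamate receptors (0.87), and Irf2bpl (0.86). Dusp6 had r = 0.75 with Egr1 and was most like Entpd7 (0.81) and Dnajb5 (0.80).

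Nptx2 and Bdnf moved together across the mice. Their r was 0.76 (rho = 0.73), with permutation p = 0.00082 and 0.00923 adjusted. It was 0.85 within the labelled knockouts and 0.64 within the labelled wild types, fell to 0.49 without the 2 libraries farthest from the median of Nptx2, and was 0.58 without knockout 6, where the call was lost (adjusted permutation p = 0.154). Without knockouts 1 and 3 and wild type 7 it was 0.76, with adjusted permutation p = 0.0656. Knockout 6 was the lowest of all 16 in both genes, at 23.0 CPM for Nptx2 and 5.04 CPM for Bdnf, and it also had the lowest cortical marker score, -0.66. Over all libraries the cortical score had r = 0.67 with Nptx2 (rho = 0.63, adjusted permutation p = 0.054) and 0.52 with Bdnf (rho = 0.54, adjusted permutation p = 0.24), neither past the threshold, and they dropped to 0.37 and 0.13 without the 2 farthest libraries. The relation of Nptx2 passed in 3 of 16 leave-outs, among them without knockout 3 (r = 0.74, adjusted permutation p = 0.0116), and that of Bdnf in none. Of the 8 cortical markers, 6 lay above the 95th percentile of r for Nptx2 and 2 for Bdnf, against 0 for Arc, Dusp1 and Nr4a1, whose median r with these markers was -0.40, -0.40 and -0.31. Bdnf ran against the oligodendrocyte markers, at r = -0.68 (adjusted permutation p = 0.054) and rho = -0.71 (adjusted 0.0446). The value for r passed in 3 of 16 leave-outs, among them without knockout 3 (r = -0.68, adjusted permutation p = 0.0443). Bdnf mRNA in striatum is known to be low, with much of the protein delivered by cortical axons. The part of cortical tissue in these values was not tested. The gene most like Bdnf was Enc1 (0.93), and for Nptx2 it was Dnajc5, a presynaptic chaperone (0.88).

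Homer1 belonged to a broad pattern. With it, 378 genes had r above 0.8 and 49 below -0.8, which is 2.77% of 15436 genes, against 0.00648% to 0.272% for the other 9 members. The most alike were Ranbp2, a nuclear pore protein (0.96), Arih1, a ubiquitin ligase (0.96), and Gabra4, a GABA receptor subunit (0.95). Its r with the markers of striatal projection neurons was 0.58 (rho = 0.48), which did not pass (adjusted permutation p = 0.134). Other members leaned the same way with these markers, Vgf at r = 0.52, Nr4a1 at 0.44, Dusp1 at 0.41 and Arc at 0.40. Over the 10 members r was above 0 in 7 and ran from -0.39 to 0.58, and 0 of these relations passed. None of the 9 other members lay above the 95th percentile of r for Homer1, 0.72, while Nr4a3 reached 0.52. Nr4a3 in turn was most like Lemd3 (0.84), Ppp2r5e (0.83) and Grik3, a kainate receptor subunit (0.82).

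The wider pathway gave 0 calls between labels. Of the 11 early transcription factors, 2 were at an unadjusted p under 0.05. Over all genes tested the share at that level was 3.41%, beside which this count and those of the lists below stand. Npas4, a neuronal factor induced by calcium entry, averaged 31.3 ± 14.2 CPM in the labelled knockouts and 19.5 ± 8.53 CPM in the labelled wild types (SD, n = 8 each), a log2 fold change of 0.68 (SE 0.28). Jun, a partner of Fos, averaged 22.7 ± 3.24 CPM in the labelled knockouts and 26.7 ± 3.14 CPM in the labelled wild types (SD, n = 8 each), a log2 fold change of -0.24 (SE 0.08). Of 28 other effectors there was 1, Rgs2, a regulator of G protein signalling, at 0.23 (SE 0.10). Of 10 ERK feedback inhibitors and of 20 genes of the ERK, CREB, SRF and MEF2 input there was none, with medians of -0.01 and 0.02 on the log2 scale. Of 15 receptors and partners of the members, such as the metabotropic receptor Grm5, there was none either. The median log2 fold change of all genes tested was 0.0004, and every gene named here had adjusted p = 0.997 by edgeR.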

How the data were processed

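Per the labels' protocols, striatal punches (3 mm in the design text, 2.5 mm in the extraction protocol) were kept in an RNA-preserving solution, and poly(A) libraries from a stranded kit were read as single ends of 50 bases. As deposited, each file gives raw read counts by gene for 1 mouse and lane. The submitters' processing notes name TopHat2 2.0.0, HTSeq 0.6.1p1, edgeR 2.14 and FastQC 0.10.1, with no role or order. Whether counting used strand is not stated, and reads of Bdnf, Dusp1 and Homer1 may mix with those of genes that overlap them.

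The 4 lanes of a mouse agreed within sampling noise (chi-square per degree of freedom 1.001 to 1.028, against 5.91 to 35.2 for 56 pairs of mice of 1 label) and were summed. Over the 16 mice, 18.0% to 19.8% of reads fell in no gene and 21.1% to 22.9% had more than 1 alignment. These rows were left out. Reads carry no molecular identifiers, so counting errors understate the error.

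The labels were tested against each other in R 4.3.3 by edgeR 4.0.16 (quasi-likelihood, two-sided), after TMM scaling and filterByExpr, which kept 15446 genes, and p-values were adjusted over all of them by Benjamini-Hochberg. The test was tried on simulated counts. Correlations over 16 mice are of log2 CPM (prior count 2), with two-sided permutation p-values from 100000 resamples, adjusted over 45 pairs or over 60 relations of members with 5 list scores and the library number (Python 3.11.15, numpy 2.4.6). RPKM used the exons of RefSeq-linked transcripts in GENCODE M21, and promoter windows came from the RefSeq table. The members, the gene lists and the tests were chosen with earlier results of these data known. Named genes are the members, Csnk1e, the 3 genes most like each member, the 2 genes of smallest p in each list, Fos, Junb, Egr1 and close relatives. As alternatives, scaling was by RLE or upper quartile, the test was DESeq2 1.42.0 or limma-voom (limma 3.58.1), and low counts were filtered otherwise. The fit also took a replicate block of mouse numbers or covariates (library number, sex read from Xist alone, cortical and oligodendrocyte scores). Single flow cells were used and mice left out. Flow cell 2 stands here for the lane files whose titles end in _2, and flow cell 1 for the others.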

Additional observations from a re-analysis of the deposited data

How the results depend on the processing

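No gene was called under any of the 31 alternatives to the test between labels. The number of genes at an unadjusted p under 0.05 was 526, and it was 323 with the library number in the fit and 362 to 909 when each mouse was left out in turn, the highest without knockout 7. The shared mouse numbers did not pair the samples (r of same-numbered deviations -0.34 to 0.10), and with the replicate block 356 genes were at that level and 0 were called. Signs turned as follows, on the log2 scale. Homer1 stood at 0.022 by limma-voom, 0.041 with library number, -0.103 to 0.058 over left-out mice, 0.021 without knockout 1 and wild type 7 and 0.055 with knockout 3 left out too. Nptx2 stood at 0.036 with the cortical score and at -0.069 to 0.028 over left-out mice. Bdnf stood at -0.12 with the oligodendrocyte score. Nr4a3 stood at 0.025 in flow cell 1 and at -0.156 to 0.0075 over left-out mice. Arc kept its sign in all, between 0.27 and 0.62. Of 45 pairs of members, 3 to 5 passed over left-out mice and 3 without knockouts 1 and 3 and wild type 7, a leave-out chosen after seeing the data, and 6 with the group means and the replicate block taken out, where r of Arc and Btg2 was 0.06. The pairs among Arc, Dusp1 and Nr4a1 passed under all 25 alternatives, between 0.84 and 0.96. The median percentile of spread was 86.2 to 88.8 over left-out mice and 92.7 with at least 1 CPM in 8 mice, which drops low genes. Nr4a3 is limited by depth, at 41 to 140 reads.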

Other observations

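Close relatives of the members had levels and relations of their own. Nr4a2, the remaining member of the Nr4a family, averaged 34.3 ± 19.1 CPM in the labelled knockouts and 23.4 ± 5.38 CPM in the labelled wild types (SD, n = 8 each), with 4 labelled knockouts above and 2 below all labelled wild types. Its log2 fold change was 0.54 (SE 0.28) with adjusted p = 0.997 by edgeR. Per length it stood at 7.71 RPKM, between Nr4a1 at 22.4 RPKM and Nr4a3 at 0.53 RPKM. Nptx1, the other secreted neuronal pentraxin, stood at 40.3 RPKM, above Nptx2 at 12.7 RPKM, and had r = 0.66 with it over 16 libraries. Homer2 and Homer3, which unlike Homer1 are not known for a short activity-induced form, stood at 4.57 and 2.54 RPKM. They had r = -0.10 and -0.48 with Homer1, and r = 0.70 and -0.74 with Bdnf. None of these relations was tested. Of 23 relatives, 20 were tested and 0 were at an unadjusted p under 0.05 by edgeR, against 3.41% of all genes tested. Nptxr, Ntf3 and Btg3 did not pass the filter on low counts. In GENCODE, Nptxr overlaps Npcd on the same strand, so its low count may not show its level.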
